A study of Mus musculus with 4 samples.

Results

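The 50 mitosis and spindle genes described here encode the proteins of mitotic entry, the spindle, the kinetochore, the spindle checkpoint, chromosome condensation and cytokinesis. They were taken by symbol from a fixed list, and all 50 were found among the 55573 mouse gene identifiers of the deposited files. Their RNA was measured by sequencing 4 libraries of B cells sorted from marrow of C57BL/6 mice, 8 to 12 weeks old, in the gate labelled Fr.C+C'. In the Hardy scheme of B cell development this gate holds late pro-B cells and the large, cycling early pre-B cells that follow them. Libraries KO 1 and KO 2 came from mice labelled ADAR1 KO, and WT 1 and WT 2 from mice labelled wild type. ADAR1, the product of Adar, edits double-stranded RNA by turning adenosine into inosine. Neither the allele nor a Cre driver nor any pooling of mice is stated by the labels. They also do not say whether the 2 libraries of a group stem from different animals, and p-values below therefore reflect only how far these libraries differ, which may be technical.

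Mitosis begins when cyclin B binds the kinase Cdk1 and Cdc25 phosphatases switch the complex on, helped by the Polo and Aurora kinases. Condensins then compact the chromosomes, kinetochores attach them to spindle microtubules, and the checkpoint holds the cell until all are attached. Cdc20 then directs the anaphase promoting complex to destroy securin and cyclin B, and the central spindle positions the cleavage furrow. The transcripts of these proteins peak late in the cell cycle. Their genes are known targets of the MuvB complex with B-Myb and FoxM1, which acts at cell cycle homology region (CHR) elements, often near CCAAT boxes bound by the factor NF-Y. In bone marrow, the pre-B cell receptor drives a burst of division in large pre-B cells.

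Promoter sequence is shown first, and most of the promoters found for these genes share a few short elements. Whether these elements bear on the difference between the libraries was not tested. RefSeq promoter windows of 300 bases (250 before and 50 after a gene's start, build GRCm38.p6) were found for 42 of the 50 genes, in 45 windows. The stretches printed run from 120 bases before the start to 30 after it. They cover the cyclin B genes and their kinase Cdk1, and 5 further genes that the text describes in full, some with and some without the elements. Capitals mark matches to any of 3 elements, searched on either strand. The CHR was searched as TTTGAA. A variant of it, TTCGAA, was counted too. The NF-Y element was searched as CCAAT, and E2F elements by the letters TTTCGCGC or by TTTGGCGC.
Ccnb1 at chr13:100786457-100786606 on the minus strand: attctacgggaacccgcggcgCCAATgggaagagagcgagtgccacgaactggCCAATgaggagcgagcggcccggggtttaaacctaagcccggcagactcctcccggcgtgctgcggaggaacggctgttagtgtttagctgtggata
Ccnb2 at chr9:70421525-70421674 on the minus strand: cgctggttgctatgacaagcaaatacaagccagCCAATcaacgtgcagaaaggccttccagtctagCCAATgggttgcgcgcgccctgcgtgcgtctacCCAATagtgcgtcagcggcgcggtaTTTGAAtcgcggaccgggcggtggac
Cdk1 at chr10:69352883-69353032 on the minus strand: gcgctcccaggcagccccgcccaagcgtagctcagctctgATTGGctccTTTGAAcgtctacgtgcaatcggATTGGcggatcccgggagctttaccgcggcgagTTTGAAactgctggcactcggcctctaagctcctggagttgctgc
Cenpf at chr1:189688057-189688206 on the minus strand: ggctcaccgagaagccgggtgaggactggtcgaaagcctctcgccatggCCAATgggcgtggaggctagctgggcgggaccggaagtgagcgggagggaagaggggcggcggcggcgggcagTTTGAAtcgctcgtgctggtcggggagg
Kif20b at chr19:34922238-34922387 on the plus strand: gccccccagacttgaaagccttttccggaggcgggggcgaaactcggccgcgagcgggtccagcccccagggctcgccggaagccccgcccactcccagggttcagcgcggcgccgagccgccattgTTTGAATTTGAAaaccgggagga
Nusap1 at chr2:119618178-119618327 on the plus strand: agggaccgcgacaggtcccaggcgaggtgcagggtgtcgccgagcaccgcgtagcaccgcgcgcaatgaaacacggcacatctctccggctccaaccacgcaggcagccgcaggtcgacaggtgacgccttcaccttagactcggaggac
Prc1 at chr7:80294331-80294480 on the plus strand: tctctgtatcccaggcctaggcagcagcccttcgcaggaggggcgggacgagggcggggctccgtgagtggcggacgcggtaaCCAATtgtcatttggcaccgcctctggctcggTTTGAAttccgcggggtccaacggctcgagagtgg
Ncapg at chr5:45669805-45669954 on the plus strand: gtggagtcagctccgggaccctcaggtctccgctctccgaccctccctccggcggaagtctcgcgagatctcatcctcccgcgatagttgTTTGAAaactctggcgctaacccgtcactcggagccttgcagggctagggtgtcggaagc
In these stretches Cdk1 held 2 CHR and 2 CCAAT matches, and Ccnb2 held 1 CHR and 3 CCAAT matches. Ccnb1 held 2 CCAAT matches and no CHR match in the letters searched, Kif20b held 2 CHR matches side by side, and Nusap1 held none.

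Over the full windows, a CHR match stood in 37 of 45 windows of the mitosis and spindle genes (82.2%), against 19.2% of all 32851 RefSeq promoter windows of that length and 14.5% of the 11483 windows of genes tested. A CCAAT match stood in 34 of 45 (75.6%), against 37.4% of all windows and 38.4% of those of genes tested. Both elements stood together in 32 windows (71.1%), against 7.53% of all windows and 6.02% of those of genes tested. The E2F letters are typical of genes switched on earlier in the cycle. They stood in 3 windows of the mitosis and spindle genes (6.67%). The share was 0.813% of all windows and 1.585% of those of genes tested. In 34 windows of G1/S and replication genes the shares were 14.7% for CHR, 67.6% for CCAAT and 29.4% for E2F. CCAAT and CHR matches were counted separately and may touch each other. A match is a run of letters and not a shown binding site, and some windows overlap because a gene has several listed starts.

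The files hold FPKM (fragments scaled by exon length and by the fragments of the library), and whole steps in the low values gave between 15122750 and 16387500 fragments a library. Each mitosis and spindle gene rested on 203 to 42040 estimated fragments in a library. Of a list of 20 B lineage markers, none was at 0 in any library. Neutrophil granule transcripts were abundant, with S100a9 at 15796 and 32346 FPKM in KO 1 and KO 2, against 11647 and 11187 FPKM in WT 1 and WT 2. KO 2 stood apart from the WT libraries (Spearman's rho across genes tested of 0.920 and 0.913) more than KO 1 did (0.955 and 0.957). Adar itself was at 15.19 and 16.79 FPKM in KO 1 and KO 2, against 15.04 and 14.62 FPKM in WT 1 and WT 2, a log2 change of 0.10 ± 0.14 (adjusted p = 0.721, limma). Adar was thus not lower in the libraries labelled KO. A value over the whole gene does not check the loss of some exons, so KO and WT below stand for the labels.

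All 50 mitosis and spindle genes were lower in both libraries labelled KO than in both WT libraries. Over all 13281 genes tested, 31.7% lay below both WT libraries in this way, as did 35.2% of the 8565 genes averaging 5 FPKM or more in a group, a level that all 50 reach. A log2 change below 0 was found for all 50 and for 61.7% of all genes tested. The summed level of the 50 genes was 2247 and 2036 FPKM in KO 1 and KO 2, against 2806 and 2896 FPKM in WT 1 and WT 2, a ratio of group means of 0.751. As a share of all FPKM the 50 genes made up 0.698% and 0.586% in KO 1 and KO 2, against 0.860% and 0.921% in WT 1 and WT 2. In bulk samples, fewer dividing cells and less of these RNAs per cell cannot be told apart.

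**Figure D1:**
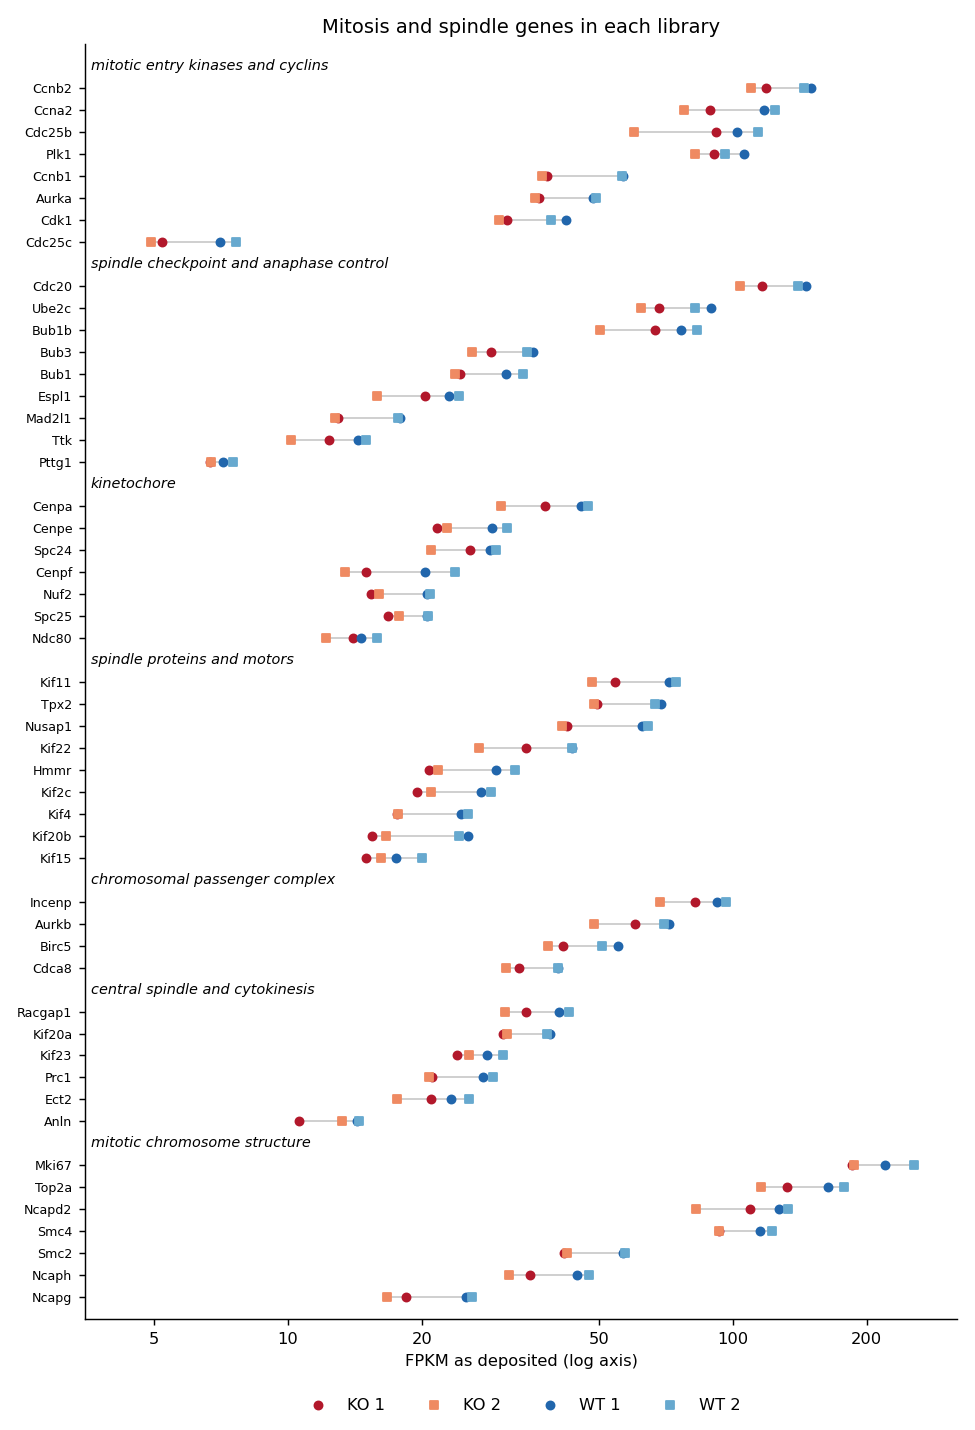
FPKM of each of the 50 mitosis and spindle genes (log axis) in KO 1, KO 2, WT 1 and WT 2, in 7 role groups; each point is 1 library and the grey line spans the 4 libraries. For every gene both KO points lie left of both WT points, from Pttg1, where the gap is narrow, to Ccnb1, Nusap1 and Kif20b, where it is wide.

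No gene of the 50 passed the test at an adjusted p under 0.05 (limma on log2(FPKM + 1), Benjamini-Hochberg over all 13281 genes), and 0.203% of all genes tested were called lower. The smallest adjusted p among the 50 was 0.296, for Kif20b. At an unadjusted p under 0.05, 27 of the 50 were lower, against 6.02% of all genes tested, and none was higher, against 6.45%. This count depended on the libraries and the fit. It was 0 without WT 1 and 0 without WT 2 (2.63% and 2.97% of all genes tested were lower at that threshold), 42 without KO 1 (25.4%) and 35 without KO 2 (6.37%). It was 13 with the replicate number as a block (4.71%), 14 with crossed pairs (6.78%), 30 with voom on estimated fragments (6.52%) and 0 with libraries scaled to equal B lineage markers (1.89%). None of the 50 was called by adjusted p with voom, the block or crossed pairs, where 0.0678%, 0.459% and 1.26% of all genes were called lower. The median log2 change was -0.41, against -0.09 over all genes tested, and single genes ran from -0.60 (Kif20b) to -0.11 (Pttg1). Against the mean of the WT libraries, the median was -0.35 in KO 1 and -0.45 in KO 2, where the medians of all genes tested were -0.01 and -0.17. That all 50 genes were below both WT libraries in each KO library alone follows from the count for both KO libraries together. Of all genes tested, 39.2% were below both WT libraries in KO 1 alone and 58.3% in KO 2 alone.

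The spread inside each group was small for these genes. The median absolute log2 difference between KO 1 and KO 2 was 0.11 over the 50 genes, against 0.29 over all genes tested. Between WT 1 and WT 2 it was 0.07 over the 50 genes and 0.12 over all genes tested. The genes tested include those averaging 1 FPKM, whereas the 50 genes had a median WT mean of 40.5 FPKM. No set matched by level was compared. For 48 of the 50 the KO to WT difference exceeded the larger of the 2 within-group differences, the exceptions being Cdc25b and Anln. This count was not made over all genes tested. The lower WT value was between 1.05 and 1.47 times the higher KO value, with a median of 1.23.

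**Figure D2:**
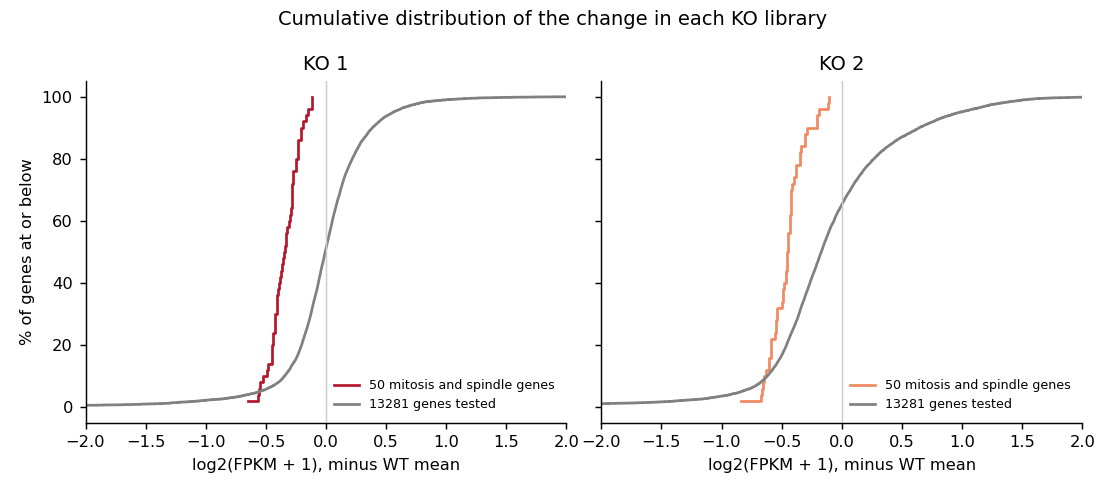
Cumulative share (%) of the 50 mitosis and spindle genes (coloured line) and of the 13281 genes tested (grey line) by log2(FPKM + 1) minus the WT mean, in KO 1 (left) and KO 2 (right). The 50 genes lie wholly below 0 in both libraries, between -0.65 and -0.11 in KO 1 and between -0.84 and -0.11 in KO 2, in the lower part of a much wider distribution.

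Mitotic entry genes had a median log2 change of -0.44 over 8 genes. Ccnb1, which encodes cyclin B1, the activating subunit of Cdk1, was at 38.23 and 37.26 FPKM in KO 1 and KO 2, against 56.72 and 56.35 FPKM in WT 1 and WT 2. The KO libraries were nearly equal to each other, as were the WT libraries, and the groups were well apart. Ccnb1 averaged 37.7 ± 0.686 FPKM in KO and 56.5 ± 0.262 FPKM in WT (SD, n = 2 each), a log2 change of -0.57 ± 0.13 (adjusted p = 0.314, limma). Ccna2, which encodes cyclin A2 of S phase and early mitosis, was at 88.92 and 77.62 FPKM in KO 1 and KO 2, against 117.7 and 124.23 FPKM in WT 1 and WT 2. Its log2 change was -0.54 ± 0.16 (adjusted p = 0.352, limma), with KO 2 the lowest library. Cdk1, the kinase that drives mitotic entry, was at 31.14 and 29.82 FPKM in KO 1 and KO 2, against 42.24 and 39.01 FPKM in WT 1 and WT 2. Its groups also did not overlap, with a log2 change of -0.40 ± 0.14 (adjusted p = 0.376, limma).

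The second cyclin B gene, Ccnb2, stood higher than Ccnb1 in every library, at 118.63 and 109.88 FPKM in the KO libraries, against 149.71 and 144.9 FPKM in the WT libraries. Per unit of length, Ccnb1 was 0.322 and 0.339 of Ccnb2 in KO 1 and KO 2, against 0.379 and 0.389 of it in WT 1 and WT 2. The ratio was thus lower in both KO libraries. The log2 change was -0.36 ± 0.15 for Ccnb2 and -0.57 ± 0.13 for Ccnb1, and whether the 2 genes differ in their change was not tested. Aurka, the centrosomal Aurora kinase that promotes spindle assembly, was at 36.64 and 35.9 FPKM in the KO libraries, against 48.51 and 49.17 FPKM in the WT libraries. Plk1, the Polo kinase that acts from entry to cytokinesis, was at 90.57 and 82.27 FPKM in the KO libraries, against 105.73 and 95.95 FPKM in the WT libraries. Plk1 had the smallest change of the entry genes (-0.22 ± 0.15), and its higher KO value came close to its lower WT value.

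The phosphatase genes differed in level and in steadiness. Cdc25b, which encodes the phosphatase that starts Cdk1 activation, was at 91.58 and 60.02 FPKM in KO 1 and KO 2, against 102.32 and 114.19 FPKM in WT 1 and WT 2. KO 1 was near the WT libraries and KO 2 far below them, so its distance from the WT mean was -0.24 in KO 1 and -0.84 in KO 2 (log2). Cdc25c, a second activator of Cdk1, was the scarcer of the pair at 5.21 and 4.91 FPKM in the KO libraries, against 7.05 and 7.63 FPKM in the WT libraries, with both KO values close together.

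Spindle checkpoint and anaphase genes had a median log2 change of -0.38 over 9 genes. Mad2l1, which encodes the checkpoint protein MAD2 that blocks Cdc20, was at 12.97 and 12.78 FPKM in KO 1 and KO 2, against 17.88 and 17.67 FPKM in WT 1 and WT 2. Each group spanned only a narrow range, and Mad2l1 averaged 12.9 ± 0.134 FPKM in KO and 17.8 ± 0.148 FPKM in WT (SD, n = 2 each). Its log2 change was -0.44 ± 0.13 (adjusted p = 0.353, limma). Bub1, a checkpoint kinase of the kinetochore, was at 24.33 and 23.8 FPKM in KO 1 and KO 2, against 30.89 and 33.7 FPKM in WT 1 and WT 2, with a log2 change of -0.41 ± 0.14 (adjusted p = 0.372, limma). Its paralogue Bub1b, which encodes BUBR1 of the complex that inhibits Cdc20, was at 66.73 and 50.19 FPKM in the KO libraries, against 76.38 and 83.25 FPKM in the WT libraries. For Bub1b the KO libraries were further apart from each other than those of Bub1.

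Bub3, the partner that brings both Bub proteins to kinetochores, was at 28.6 and 25.87 FPKM in the KO libraries, against 35.64 and 34.45 FPKM in the WT libraries. Ttk, which encodes the kinase MPS1 at the top of the checkpoint, was at 12.37 and 10.18 FPKM in the KO libraries, against 14.37 and 14.98 FPKM in the WT libraries. Both had KO 2 as the lowest library and no overlap of the groups. Cdc20, the activator of the anaphase promoting complex, was the most abundant of the 9 genes at 116.63 and 103.61 FPKM in the KO libraries, against 145.81 and 140.54 FPKM in the WT libraries. Ube2c, the ubiquitin-conjugating enzyme of that complex, was at 68.3 and 62.31 FPKM in the KO libraries, against 89.45 and 82.26 FPKM in the WT libraries. Cdc20 and Ube2c stood at 0.769 and 0.761 times their WT means, near the median of 0.748 over the 50 genes.

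The genes of sister separation differed in the size of their change. Espl1, which encodes separase, the protease that cuts cohesin, was at 20.28 and 15.88 FPKM in the KO libraries, against 22.97 and 24.26 FPKM in the WT libraries. Pttg1, which encodes securin, the inhibitor of separase, was at 6.69 and 6.71 FPKM in KO 1 and KO 2, against 7.15 and 7.52 FPKM in WT 1 and WT 2. Pttg1 had the smallest change of the 50 genes, -0.11 ± 0.14 with a 95% interval of -0.46 to 0.23, which includes 0.

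Kinetochore genes had a median log2 change of -0.38 over 7 genes. Cenpf, which encodes a large protein of the outer kinetochore, was at 14.96 and 13.46 FPKM in KO 1 and KO 2, against 20.3 and 23.72 FPKM in WT 1 and WT 2. It averaged 14.2 ± 1.06 FPKM in KO and 22 ± 2.42 FPKM in WT (SD, n = 2 each), the lowest ratio of the 50 genes at 0.646, with a log2 change of -0.59 ± 0.15 (adjusted p = 0.343, limma). Cenpe, the kinesin that moves chromosomes to the spindle equator, was at 21.61 and 22.74 FPKM in KO 1 and KO 2, against 28.82 and 31.01 FPKM in WT 1 and WT 2. Here KO 1 was the lower KO library, and the log2 change was -0.42 ± 0.13 (adjusted p = 0.372, limma). Cenpa, the histone H3 variant that marks centromeres, was at 37.91 and 30.18 FPKM in the KO libraries, against 45.65 and 47.17 FPKM in the WT libraries.

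The 4 subunits of the NDC80 complex, which binds microtubules, are needed together, and they shifted to different extents. Nuf2 was at 15.4 and 16.03 FPKM in the KO libraries, against 20.51 and 20.84 FPKM in the WT libraries, the largest change of the 4 (-0.38 ± 0.13). Spc24 was at 25.64 and 20.94 FPKM in the KO libraries, against 28.53 and 29.33 FPKM in the WT libraries. Spc25 was at 16.81 and 17.78 FPKM in the KO libraries, against 20.58 and 20.69 FPKM in the WT libraries. KO 2 was the lowest library for Spc24, and KO 1 for Nuf2 and Spc25. Ndc80 itself was at 13.99 and 12.15 FPKM in the KO libraries, against 14.63 and 15.84 FPKM in the WT libraries, with a log2 change of -0.21 ± 0.15. All 4 were lower in both KO libraries, and the standard errors (0.13 to 0.16) were similar in size to the differences among the 4.

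Spindle proteins and motors had the lowest median of the 7 role groups, -0.50 over 9 genes, and 8 of the 9 had an unadjusted p under 0.05 (6.02% of all genes tested were lower at that p). Kif20b, a kinesin of the late spindle and midbody, was at 15.44 and 16.64 FPKM in KO 1 and KO 2, against 25.38 and 24.24 FPKM in WT 1 and WT 2. It averaged 16.0 ± 0.849 FPKM in KO and 24.8 ± 0.806 FPKM in WT (SD, n = 2 each), with a log2 change of -0.60 ± 0.13 (95% interval -0.94 to -0.26, adjusted p = 0.296, limma). Nusap1, which bundles spindle microtubules near chromosomes, was at 42.44 and 41.39 FPKM in KO 1 and KO 2, against 62.46 and 64.42 FPKM in WT 1 and WT 2. Both groups were tight, and Nusap1 averaged 41.9 ± 0.742 FPKM in KO and 63.4 ± 1.39 FPKM in WT (SD, n = 2 each). Its log2 change was -0.59 ± 0.14 (adjusted p = 0.307, limma), close to that of Kif20b.

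Among the other motors, Kif11, which pushes spindle poles apart, was at 54.48 and 48.31 FPKM in the KO libraries, against 72.04 and 74.63 FPKM in the WT libraries. Kif15, which can take over from Kif11, was at 15.01 and 16.15 FPKM in the KO libraries, against 17.53 and 20.03 FPKM in the WT libraries. Kif15 had the smallest change of this group (-0.25 ± 0.14), and WT 1 was close to KO 2. Kif2c, the depolymerase MCAK that corrects wrong attachments, was at 19.55 and 20.93 FPKM in the KO libraries, against 27.18 and 28.54 FPKM in the WT libraries. Kif4, the chromosome-arm kinesin encoded on the X chromosome, was at 17.63 and 17.68 FPKM in the KO libraries, against 24.54 and 25.44 FPKM in the WT libraries. Within each group the Kif4 values were almost equal.

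Kif22, another kinesin of chromosome arms, was at 34.38 and 26.93 FPKM in KO 1 and KO 2, against 43.6 and 43.42 FPKM in WT 1 and WT 2. KO 2 was well below KO 1, and without KO 1 this was the only gene of the 50 called lower (log2 change -0.67, adjusted p = 0.0490, limma), where 2.88% of all genes tested were called lower. Tpx2, the activator of Aurora A on microtubules, was at 49.52 and 48.86 FPKM in the KO libraries, against 69.09 and 66.79 FPKM in the WT libraries. Hmmr, a spindle assembly factor also known as a hyaluronan receptor, was at 20.71 and 21.7 FPKM in the KO libraries, against 29.42 and 32.45 FPKM in the WT libraries. It stood at 0.685 times its WT mean, with KO 1 the lower KO library.

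The chromosomal passenger complex, which places Aurora B on centromeres and later on the central spindle, had a median log2 change of -0.36 over its 4 genes. Birc5, which encodes survivin, was at 41.64 and 38.45 FPKM in KO 1 and KO 2, against 55.27 and 50.78 FPKM in WT 1 and WT 2, a log2 change of -0.40 ± 0.14 (adjusted p = 0.385, limma). Cdca8, which encodes borealin, was at 33.01 and 30.86 FPKM in KO 1 and KO 2, against 40.5 and 40.43 FPKM in WT 1 and WT 2, a log2 change of -0.33 ± 0.13 (adjusted p = 0.409, limma). The WT libraries were almost equal for Cdca8, and both KO libraries were lower. Aurkb, the kinase of the complex, was at 60.24 and 48.64 FPKM in the KO libraries, against 71.92 and 69.99 FPKM in the WT libraries. Incenp, its scaffold, was at 82.45 and 68.49 FPKM in the KO libraries, against 92.04 and 96.64 FPKM in the WT libraries. All 4 genes were lower in KO 2 than in KO 1.

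Central spindle and cytokinesis genes had the median nearest 0 of the 7 role groups, -0.32 over 6 genes. Prc1, which cross-links the microtubules of the central spindle, was at 21.03 and 20.81 FPKM in KO 1 and KO 2, against 27.51 and 28.94 FPKM in WT 1 and WT 2. Each group was tight, and the log2 change was -0.41 ± 0.13 (adjusted p = 0.370, limma). Racgap1, part of the centralspindlin complex, was at 34.28 and 30.75 FPKM in KO 1 and KO 2, against 40.59 and 42.78 FPKM in WT 1 and WT 2, with a log2 change of -0.35 ± 0.14 (adjusted p = 0.409, limma). Its partner, the motor Kif23, was at 23.96 and 25.5 FPKM in the KO libraries, against 28.08 and 30.47 FPKM in the WT libraries.

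Kif20a, the motor that carries the passenger complex to the midzone, was at 30.49 and 31.05 FPKM in the KO libraries, against 38.89 and 38.32 FPKM in the WT libraries. Ect2, the exchange factor that activates RhoA at the furrow, was at 20.93 and 17.57 FPKM in the KO libraries, against 23.22 and 25.51 FPKM in the WT libraries. Anln, which encodes the ring scaffold anillin, was at 10.59 and 13.26 FPKM in KO 1 and KO 2, against 14.27 and 14.46 FPKM in WT 1 and WT 2. For Anln KO 2 came close to the WT libraries and KO 1 was further below, the reverse of Cdc25b.

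Genes of mitotic chromosome structure had a median log2 change of -0.45 over 7 genes. Ncapg, a subunit of condensin I, was at 18.41 and 16.67 FPKM in KO 1 and KO 2, against 25.17 and 25.96 FPKM in WT 1 and WT 2, a log2 change of -0.52 ± 0.14 (adjusted p = 0.345, limma). Ncaph, the subunit that closes the condensin I ring, was at 34.99 and 31.43 FPKM in KO 1 and KO 2, against 44.62 and 47.53 FPKM in WT 1 and WT 2, a log2 change of -0.46 ± 0.14 (adjusted p = 0.370, limma). Both had KO 2 as the lowest library. Ncapd2, another subunit of condensin I, was at 109.4 and 82.59 FPKM in the KO libraries, against 126.91 and 132.94 FPKM in the WT libraries, with a wide gap between KO 1 and KO 2. The ATPase subunits, which both condensins share, were steadier within the KO group. Smc2 was at 41.79 and 42.44 FPKM in the KO libraries, against 56.8 and 57.23 FPKM in the WT libraries. Smc4 was at 92.91 and 93.17 FPKM in the KO libraries, against 115.4 and 122.4 FPKM in the WT libraries.

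Top2a, which encodes the topoisomerase that untangles sister DNA, was at 132.62 and 116.01 FPKM in KO 1 and KO 2, against 163.49 and 178.32 FPKM in WT 1 and WT 2. It averaged 124 ± 11.7 FPKM in KO and 171 ± 10.5 FPKM in WT (SD, n = 2 each), a log2 change of -0.46 ± 0.17 (adjusted p = 0.386, limma). Mki67, whose product Ki-67 coats mitotic chromosomes and marks dividing cells, had the highest level of the 50 genes at 184.95 and 187.07 FPKM in KO 1 and KO 2, against 220.38 and 254.98 FPKM in WT 1 and WT 2. The KO libraries were nearly equal and the WT libraries less so, and the log2 change was -0.35 ± 0.17 (adjusted p = 0.456, limma).

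**Figure D3:**
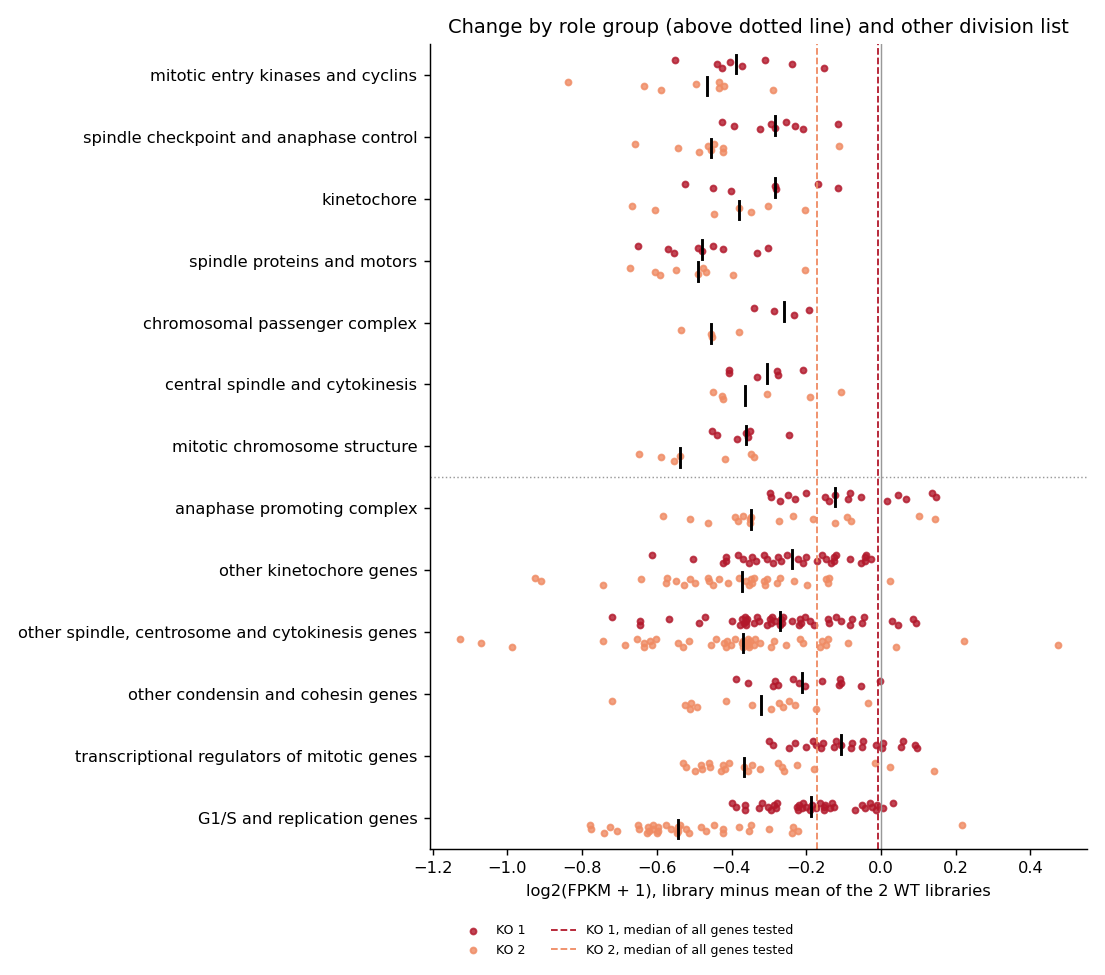
Log2(FPKM + 1) of each gene minus the mean of the WT libraries, for KO 1 and KO 2, by role group of the 50 genes (above the dotted line) and by list of other division genes (below it); points are genes, black bars medians, dashed lines the medians of all genes tested. Every one of the 50 genes lies left of 0 in both libraries, and the gap between KO 1 and KO 2 is widest for G1/S and replication genes, with medians of -0.19 and -0.54.

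Genes of division outside the 50 were mostly lower too. Of 167 genes in 6 further lists, 135 lay below both WT libraries in both KO libraries (31.7% of all genes tested did), 5 lay above both, and none passed the adjusted threshold in limma, with 36 lower at an unadjusted p under 0.05 (6.02% of all genes tested). The other kinetochore genes had 29 of 32 below both WT libraries and a median log2 change of -0.32. Ska2, of a complex that tracks microtubule ends, was at 15.51 and 15.94 FPKM in the KO libraries, against 25.3 and 23.2 FPKM in the WT libraries (log2 change -0.59 ± 0.13, adjusted p = 0.3, limma). Cenpl, of the inner kinetochore, was at 6.64 and 7.31 FPKM in the KO libraries, against 9.87 and 9.77 FPKM in the WT libraries (log2 change -0.44 ± 0.14, adjusted p = 0.370, limma). Ska2 lay about as far below WT as the lowest of the 50 genes, and Cenpl lay near their median of -0.41.

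Further spindle, centrosome and cytokinesis genes had 39 of 45 below both WT libraries (31.7% of all genes tested were). Their median was -0.35. Kif18a, a kinesin that damps chromosome movement, was at 3.49 and 3.81 FPKM in the KO libraries, against 6.28 and 6.5 FPKM in the WT libraries (log2 change -0.67 ± 0.14, adjusted p = 0.294, limma). Kpna2, which encodes an importin alpha, was at 24.79 and 17.45 FPKM in the KO libraries, against 38.19 and 40.45 FPKM in the WT libraries (log2 change -0.89 ± 0.20, adjusted p = 0.3, limma). Kpna2 lay further down than any of the 50 genes, and the size of its change differed with the KO library used. It was called lower without KO 1 (log2 change -1.13, adjusted p = 0.0426, limma) and stood at -0.64 without KO 2. The condensin and cohesin genes outside the 50 had 11 of 14 below both and a median of -0.27. There Esco2, which acetylates cohesin in S phase, was at 14.05 and 10.94 FPKM in the KO libraries, against 17.45 and 19.99 FPKM in the WT libraries (log2 change -0.55 ± 0.18, adjusted p = 0.370, limma). Ncapg2, of condensin II, was at 18.67 and 15.86 FPKM in the KO libraries, against 22.72 and 23.31 FPKM in the WT libraries (log2 change -0.40 ± 0.15, adjusted p = 0.387, limma).

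The anaphase promoting complex, which is present in resting cells as well, had 12 of 17 below both WT libraries (31.7% of all genes tested were). Its median was -0.18, against -0.09 over all genes. That median was -0.35 without KO 1 and -0.12 without KO 2. Its subunit gene Cdc27 was at 19.05 and 15.98 FPKM in the KO libraries, against 21.9 and 24.55 FPKM in the WT libraries (log2 change -0.39 ± 0.16, adjusted p = 0.409, limma). Cdc23, another subunit gene, was at 7.37 and 6.95 FPKM in the KO libraries, against 9.36 and 9.17 FPKM in the WT libraries (log2 change -0.33 ± 0.13, adjusted p = 0.412, limma), and its exons overlap those of Kif20a. Regulators of mitotic transcription had 15 of 23 below both and a median of -0.23, which was -0.37 without KO 1 and -0.11 without KO 2. Foxm1, which activates late cell cycle genes, was at 41.29 and 33.72 FPKM in the KO libraries, against 42.89 and 47.21 FPKM in the WT libraries (log2 change -0.26 ± 0.16, adjusted p = 0.512, limma). Mybl2, which encodes B-Myb, was at 28.68 and 21.96 FPKM in the KO libraries, against 27.93 and 29.26 FPKM in the WT libraries (log2 change -0.18 ± 0.17, adjusted p = 0.632, limma). E2f1, an activator of G1/S genes, was at 27.2 and 19.62 FPKM in the KO libraries, against 24.6 and 26.19 FPKM in the WT libraries (log2 change -0.13 ± 0.19, adjusted p = 0.743, limma). For Mybl2 and E2f1, KO 1 did not lie below both WT libraries. The change of Foxm1 was -0.41 without KO 1 and -0.12 without KO 2.

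Lin9, a core subunit of MuvB, was at 5 and 3.67 FPKM in the KO libraries, against 5.75 and 5.66 FPKM in the WT libraries (log2 change -0.34 ± 0.18, adjusted p = 0.472, limma), with a change of -0.52 without KO 1 and -0.16 without KO 2. The smallest p-values of the regulators were those of Tfdp2, a dimer partner of E2F factors, and of E2f5, a mostly repressive E2F. Tfdp2 was at 6.67 and 5.49 FPKM in the KO libraries, against 8.1 and 8.65 FPKM in the WT libraries (log2 change -0.41 ± 0.16, adjusted p = 0.395, limma). E2f5 was at 5.35 and 4.6 FPKM in the KO libraries, against 7.07 and 6.56 FPKM in the WT libraries (log2 change -0.39 ± 0.15, adjusted p = 0.398, limma). Both were lower in both KO libraries by about as much as the 50 genes. G1/S and replication genes had 29 of 36 below both (31.7% of all genes tested were). Their median was -0.37, with -0.19 in KO 1 and -0.54 in KO 2 against the WT mean. Rrm1, of ribonucleotide reductase, was at 39.77 and 35.52 FPKM in the KO libraries, against 52.68 and 51.97 FPKM in the WT libraries (log2 change -0.47 ± 0.14, adjusted p = 0.367, limma). Cdc6, a loader of the replicative helicase, was at 18.63 and 15.71 FPKM in the KO libraries, against 24.85 and 23.67 FPKM in the WT libraries (log2 change -0.48 ± 0.15, adjusted p = 0.370, limma). Whether the gap between KO 1 and KO 2 differs between these lists and the 50 genes was not tested.

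Among the mitosis and spindle genes with a promoter window, median log2 changes were close with and without each element. The median was -0.41 over the 34 genes with a CHR match and -0.43 over the 8 without, among them Ccnb1 and Nusap1. It was -0.41 over the 31 genes with a CCAAT match and -0.40 over the 11 without. The ranges overlapped throughout, from -0.60 to -0.21 with a CHR match and from -0.59 to -0.11 without.

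Marker lists of the B lineage and of other cells differed in how far they followed the groups. The neutrophil list of 18 genes was above both WT libraries in both KO libraries for 15 genes (19.7% of all genes tested were), and its summed level was 38029 and 77796 FPKM in KO 1 and KO 2, against 29346 and 27323 FPKM in WT 1 and WT 2. No neutrophil marker was at 0. The B lineage list of 20 genes had 10 below both WT libraries (31.7% of all genes tested were) and 1 above both, with sums of 3029 and 1749 FPKM in KO 1 and KO 2, against 3588 and 3714 FPKM in WT 1 and WT 2. The median of this list against the WT mean was -0.08 in KO 1 and -0.99 in KO 2 (log2), where the medians of the 50 genes were -0.35 and -0.45. Single B lineage genes ran from -1.17 to 0.69 in KO 1 and from -2.16 to 0.19 in KO 2.

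Erythroid markers had 10 of the 12 genes found below both WT libraries, where 31.7% of all genes tested lay. Their sums were 356 and 666 FPKM in KO 1 and KO 2, against 1344 and 785 FPKM in WT 1 and WT 2. WT 1 held more erythroid RNA than WT 2. Plasma cell markers had 5 of 7 tested genes below both and 1 above both (31.7% and 19.7% of all genes tested), with sums of 187 and 119 FPKM in KO 1 and KO 2, against 289 and 300 FPKM in WT 1 and WT 2, and Tnfrsf17 at 0 in both KO libraries. Of these 7 genes 1 was called lower (adjusted p = 0.00135, limma), where 0.203% of all genes tested were. Log2 changes in this list ran from -6.21 to 0.27. The monocyte and macrophage list had no gene of 10 below both and 2 above (31.7% and 19.7% of all genes tested). Its sums were 185 and 304 FPKM in KO 1 and KO 2, against 343 and 208 FPKM in WT 1 and WT 2. The T cell list had 1 of 5 tested genes below both and 2 above, counts too small to set against those shares, with sums of 22.8 and 28.2 FPKM in KO 1 and KO 2, against 18.9 and 19.7 FPKM in WT 1 and WT 2. The part of these cells in the lower mitotic transcripts was not tested.

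**Figure D4:**
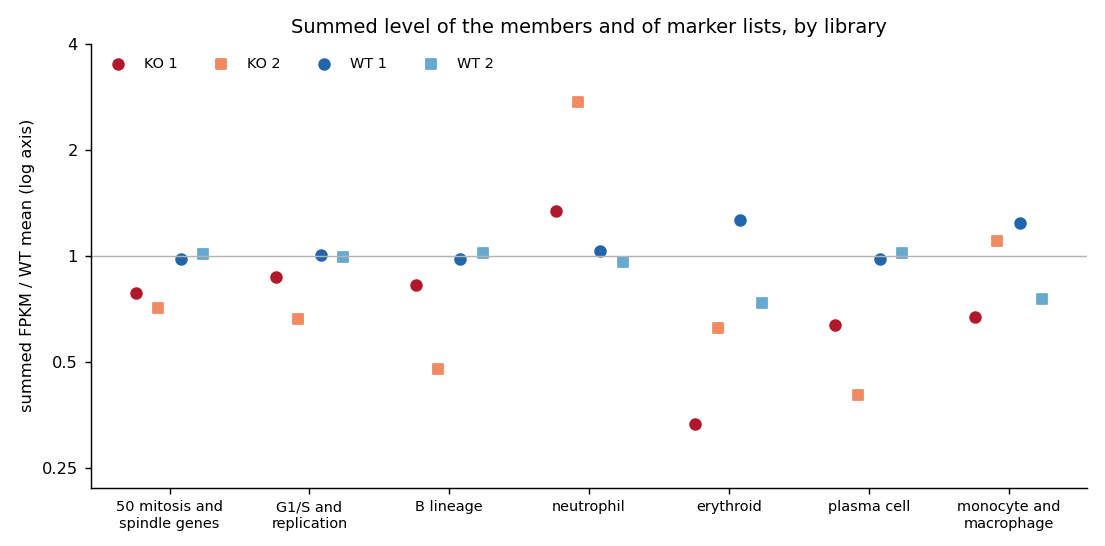
Summed FPKM of the 50 mitosis and spindle genes, of the G1/S and replication list and of 5 cell type marker lists in each library, divided by the mean of the WT libraries (log axis). The 50 genes sit below 1 and close together in KO 1 and KO 2, whereas the neutrophil sum is above 1 and the B lineage sum far lower in KO 2 than in KO 1.

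The direction depended on what the libraries were scaled to. With the values as deposited, with quantile normalization, with median centring and with the neutrophil list left out of the scale, all 50 genes had a negative log2 change, and 50, 48, 47 and 45 of them lay below both WT libraries (31.7%, 26.5%, 25.9% and 24.5% of all genes tested). Pttg1 and Anln were among those that did not under each of the last 3, joined by Kif15 under the last 2 and by Ndc80 and Kif23 under the last. With libraries scaled to equal B lineage markers, none of the 50 lay below both WT libraries (3.87% of all genes tested did), and the median log2 change was 0.045. The median of all genes tested was 0.30 with that scaling and -0.09 as deposited, so the difference of the medians of the 50 genes and all genes was -0.26 with it and -0.31 as deposited. By library, KO 1 then had all 50 genes below both WT libraries (median -0.37, with 43.6% of all genes tested below), and KO 2 had all 50 above both (median 0.48, with 90.5% of all genes tested above). The difference of the medians of the 50 genes and all genes was then -0.34 in KO 1 and -0.16 in KO 2, against -0.34 and -0.28 as deposited.

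**Figure D5:**
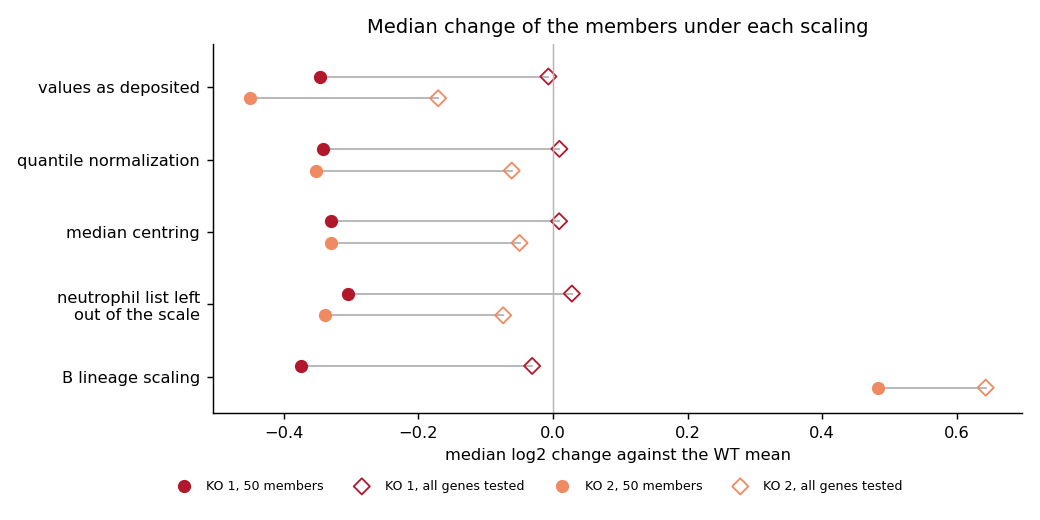
Median log2 change against the WT mean of the 50 mitosis and spindle genes (filled circles) and of all genes tested (open diamonds) in KO 1 and KO 2, under each scaling of the libraries. The 50 genes lie left of all genes in every case, and their median lies right of 0 only in KO 2 under B lineage scaling.

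Some genes share exon sequence with a neighbour. In the GENCODE M21 annotation 15 of the 50 genes share exon bases with another gene, 13 of them with a gene on the opposite strand, and at most 1271 bases, for Kif20a with Cdc23. The labels do not state whether counting used strand, which bears on those 13. For the other 2, Ncapd2 and Top2a, the neighbours lie on the same strand, and counting by strand would not separate them. Part of the values of all 15 genes may thus come from a neighbour. The other 35 genes share none. How much of any value comes from a neighbour was not tested.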

How the data were processed

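The authors deposited an FPKM value for each of 55573 Ensembl gene identifiers in each library, with 2 decimals, per the file headers. The submitters' processing notes name mm9 and state no aligner or counter. A symbol was matched to 55394 identifiers, while exon lengths and positions came from GENCODE M21 (GRCm38). FPKM times exon length fell on whole fragments, within 0.15, in 99.3% to 99.6% of the values checked.

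Genes averaging 1 FPKM or more in either group entered limma 3.58.1 (under R 4.3.3), run with its intensity trend on log2(FPKM + 1) without covariates, and Benjamini-Hochberg adjustment over all 13281 genes. All 50 mitosis and spindle genes passed this filter. Log2 changes are KO minus WT, ± standard errors, and understate changes of low genes. The smallest p of an exact permutation test is 0.333 at this size, so none was run. Alternatives were a pseudocount of 0.1, other filters and scalings, replicate blocks, leaving out each library, and voom on estimated fragments.

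The genes and lists were chosen with earlier results of these data known. Named in full were Ccnb1, Cdk1, Top2a, Mki67, the 2 genes of smallest p in each role group and other list, Foxm1, Mybl2, E2f1, Lin9 and Adar. The numbers 1 and 2 are not stated to pair libraries. The erythroid marker Ahsp was not matched.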

Additional observations from a re-analysis of the deposited data

How the results depend on the processing

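The median log2 change of the 50 genes kept its sign with each of the 14 alternatives except B lineage scaling, where it was 0.045, and it was -0.33 with the neutrophil list left out of the scale. Without each library in turn it ran from -0.45 (without KO 1) to -0.35 (without KO 2). The count below both WT libraries was 0 with B lineage scaling. Leaving out a library cannot lower a count that is 50 with all libraries, so its value of 50 there is not a check. The share of all genes tested that lay below the WT libraries kept was 42.2% without WT 1 and 43.3% without WT 2. It was 57.7% without KO 1 and 38.6% without KO 2, against 31.7% with all libraries. The number of the 50 called was 0 except without KO 1 (1 gene, Kif22), a range of 0 to 1 over the libraries left out. Calls over all genes, 27 as deposited, were 15 with a pseudocount of 0.1, 0 with no filter, 207 with B lineage scaling and 9 with voom. They ran from 0 (without KO 2) to 948 (without KO 1), with 14 without WT 1. With the replicate block 68 genes were called, and with crossed pairing, added after seeing that same-numbered libraries deviated in opposite ways (correlation -0.15 across genes), 213. Neither block called any of the 50.

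B lineage scaling also reversed these medians: 0.067 for spindle checkpoint and anaphase control, 0.067 for kinetochore, 0.095 for chromosomal passenger complex, 0.12 for central spindle and cytokinesis, 0.012 for mitotic chromosome structure, 0.25 for anaphase promoting complex, 0.12 for other kinetochore genes, 0.090 for other spindle, centrosome and cytokinesis genes, 0.18 for other condensin and cohesin genes, 0.22 for transcriptional regulators of mitotic genes and 0.074 for G1/S and replication genes. The medians of the remaining role groups were then near 0, at -0.011 for mitotic entry and -0.051 for spindle proteins and motors. It reversed these log2 changes, none of which passed: 0.049 for Cdk1, 0.0013 for Top2a, 0.11 for Mki67, 0.0016 for Mad2l1, 0.040 for Bub1, 0.033 for Cenpe, 0.057 for Birc5, 0.12 for Cdca8, 0.032 for Prc1, 0.10 for Racgap1, 0.051 for Cdc27, 0.087 for Cdc23, 0.043 for Ncapg2, 0.010 for E2f5, 0.19 for Foxm1, 0.27 for Mybl2, 0.31 for E2f1 and 0.044 for Lin9. Leaving out 1 library, the change of Mybl2 ran from -0.37 (without KO 1) to 0.0045 (without KO 2), and that of E2f1 from -0.36 to 0.096, reversed only without KO 2. With 2 libraries a group and standard errors of 0.13 to 0.24 on single genes of the 50, changes of the size seen did not pass over 13281 genes. The fit without a library leaves an arm with 1 sample, which is assumed to vary like the other group.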

Other observations

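Among the division genes outside the 50, a few went against the rest, and they are named here after their values were seen. Tfdp1, which encodes the main dimer partner of E2F factors, was at 106.06 and 109.76 FPKM in the KO libraries, against 101.65 and 97.24 FPKM in the WT libraries. Iqgap3, a scaffold of proliferating cells, was at 7.05 and 9.47 FPKM in the KO libraries, against 6.62 and 6.47 FPKM in the WT libraries. Anapc11, which encodes a small subunit of the anaphase promoting complex, was at 7.73 and 7.52 FPKM in the KO libraries, against 7.45 and 6.46 FPKM in the WT libraries. Another small subunit, Anapc13, was at 12 and 12.71 FPKM in the KO libraries, against 11.85 and 10.97 FPKM in the WT libraries. Haus8, of the augmin complex, was at 6.21 and 6.18 FPKM in the KO libraries, against 6.08 and 5.89 FPKM in the WT libraries. These 5 lay above both WT libraries in both KO libraries (19.7% of all genes tested did), and none passed the test (adjusted p of 0.515 to 0.883, limma).

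The phosphatase genes of the Cdc25 family also differed, which was seen after their values were known. Cdc25a, of the G1/S list, was at 14.27 and 17.36 FPKM in the KO libraries, against 14.97 and 14.64 FPKM in the WT libraries, so KO 2 was its highest library, whereas KO 2 was the lowest library for Cdc25b and Cdc25c.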
